A study of Mus musculus with 3 samples.

Results

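The densest neighbourhoods of the tiling design were made up of 3184 tiled regions. A tiled region was a run of at least 3 probes whose starts lay at most 500 bp apart, and a region was taken as dense when it lay on an autosome and had at least 25 other region midpoints within 250 kb on either side. The dense regions were 11.02% of all 28880 tiled regions and 11.5% of the 27675 autosomal ones, and they were chosen by position alone, with no measured value. They were compared with the other 24491 autosomal regions. The files place probes on mouse build mm9 and name no gene, so whether each region marks a gene was not tested, and "dense" means crowded with tiled regions.

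The study measured 5-methylcytosine in frontal cortex of male C57BL/6 mice, naive and 2 months old, with DNA pooled from 3 mice per sample and 3 samples in 1 group. Methylated fragments were captured with an antibody (methylated DNA immunoprecipitation), and the bound fraction, labelled with Cy5, was hybridised together with Cy3-labelled input DNA of the pool to 1 array per sample. The dyes ran the same way on all 3 arrays, so dye and enrichment cannot be told apart. The titles number the arrays 1 to 3 while the descriptions give each the same replicate number, so the errors cover the spread between arrays, which may be technical. The series title ties the data to methylation at transcription start sites and to binding of the TATA-binding protein, which helps to place RNA polymerase II at promoters.

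In mammalian DNA 5-methylcytosine lies mostly at CpG sites, and most CpGs outside CpG islands are methylated. Promoters that lie in CpG islands are usually unmethylated, also when the gene is silent, and methylation of a promoter usually goes with silence of its gene. Many genes of mammalian genomes lie in clusters, among them families that arose by tandem duplication, so crowded stretches can hold promoters of like sequence. An antibody against 5-methylcytosine captures a fragment more readily the more methylated CpGs it holds, so the level of a region depends on its CpG number as well as on how much of it is methylated.

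Every level below is the mean log2 ratio of bound over input signal over the probes of a region, with the median probe of the array set to 0. A level of 0 is that median and neither a methylated nor an unmethylated reference. Errors are SDs over the 3 arrays. Each array held 420288 spots, and the input signal was well above background at 83.3% of probes on array 1 but at 69.0% and 69.3% on arrays 2 and 3. A region was called higher or lower when limma's fit against 0 gave a Benjamini-Hochberg adjusted p under 0.05 over all tiled regions. The number of arrays, 3, limits the precision of every value.

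The first question was whether crowded regions differed in level from the rest. Of the 3184 dense regions, 900 were called higher (28.3%), where 28% of all tiled regions were. A further 1269 were called lower (39.9%), where 38.1% of all tiled regions were, and 1015 (31.9%) were not called. Both shares lay near the background. The balance of calls depended on the probes and the zero point. Where both signals of a probe were above background, 1231 dense regions were called higher and 626 lower, and with the array mode as zero 320 were called higher and 2404 lower. Calls of at least 2-fold were made for 311 dense regions on the higher side (9.77%), beside a background of 8.84%, and for 300 on the lower side (9.42%), beside 8.12%. All 3 arrays had one sign in 80.2% of dense regions and in 79.5% of the others.

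The mean level of the dense regions was -0.041 on array 1, -0.059 on array 2 and -0.073 on array 3. The other autosomal regions had means of -0.043, -0.038 and -0.076 on the same arrays. The sets overlapped, and dense minus other was -0.0051 ± 0.013 (SD, n = 3), below 0 on array 2 only. An exact permutation test that flips the signs of the arrays (two-sided) gave p = 1, and its smallest possible p with 3 arrays is 0.25. The sign of this difference was not stable: it was 0.076 in the deposited log2 values, 0.035 over probes with input above background and -0.042 after loess normalisation.

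Single dense regions varied far more than these means. Their levels had an SD across regions of 0.77 and had a 5th percentile of -1.21 and a 95th percentile of 1.36, with extremes of -2.67 and 2.69. The other autosomal regions had an SD across regions of 0.74 and the same percentiles at -1.15 and 1.28. A single dense region had a median SD over arrays of 0.19.

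Dense regions were brighter on the arrays. Input was well above background in 78.3% of their measurements, a measurement being 1 probe on 1 array, and in 73.1% of those of the other regions. The bound signal was well above background in 60.2% and 54.7% of measurements. The part of signal strength in the comparisons was not tested beyond the values given here. Against other regions matched by input signal, in 5 classes with equal numbers of dense regions, the difference was -0.043.

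Dense regions had nearly the length of the rest, with a median of 1347 bp against 1340 bp and 14 probes in both sets. They were spread differently over the length classes. Standard regions of 1000 to 1800 bp were 63.9% of dense and 69.2% of other regions, while regions over 1800 bp were 14.7% of dense and 10.2% of other ones. The 467 long dense regions were 15.7% of all autosomal regions of that length. Short regions of at most 600 bp were 11.6% of dense and 10.71% of other regions, and those over 600 bp but under 1000 bp were 9.80% and 9.89%. The mean length, which the longest regions raise, was 1357 bp in dense and 1301 bp in other regions. The median depended on how probes were joined: with starts at most 300 bp apart, dense minus other was -73 bp.

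Among the length classes, short regions showed the largest gap between dense and other regions. The 370 short dense regions had means of 0.022, -0.031 and -0.082 on the 3 arrays, against 0.17, 0.17 and 0.089 in the 2622 other short regions. The dense mean lay below the other one on every array, and below all 3 of the other values as well. The difference was -0.17 ± 0.025 (SD, n = 3), with a two-sided exact permutation p of 0.25, the smallest that 3 arrays allow. Of the short dense regions 30.8% were called higher and 37.0% lower, whereas other short regions were called higher in 37.6% and lower in 30.2%. The difference shrank to -0.027 with at least 20 midpoints as the limit, to -0.041 with a window of 100 kb, to -0.051 with probes joined at 300 bp, to -0.092 with normexp background correction and to -0.027 in the deposited log2 values. It was -0.24 where both signals of a probe were above background.

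Short dense regions came from 74 stretches, none of which held more than 22 of them. The 22 in the largest stretch of chromosome 17 (chr17:33839991-36291976) averaged 0.40 ± 0.17, while the 9 at chr8:72498139-73398503 averaged -0.62 ± 0.14 and the 9 at chr4:88238119-88495986 averaged 0.79 ± 0.08. Short regions of one crowded stretch could thus sit well above the array median and those of another well below it. More of the short dense regions lay within 2000 bp of another tiled region (64.3%) than of the other short ones (52.8%). The rule that picks dense regions by crowding favours such near neighbours. Dense minus other was -0.18 ± 0.02 among short regions that near to another and -0.16 ± 0.05 among those farther away, so the gap was of like size on both sides of that distance.

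Longer dense regions lay slightly above their counterparts. The 2035 standard dense regions had means of -0.0081, -0.016 and -0.032, and the 16942 others of -0.039, -0.030 and -0.070. Dense minus other was 0.028 ± 0.012 (SD, n = 3) and above 0 on every array. It turned to -0.027 after loess, to -0.025 where both signals of a probe were above background and to -0.016 against other regions of like input signal. In the deposited log2 values it was 0.088, and over probes with input above background 0.060. The 467 dense regions over 1800 bp had means of -0.24, -0.28 and -0.26, against -0.32, -0.33 and -0.31 in the 2504 others, a difference of 0.057 ± 0.018 (SD, n = 3). It was -0.0051 after loess. Of the long dense regions 19.7% were called higher and 54.8% lower, and of the other long regions 14.7% and 55.4%. In regions over 600 bp but under 1000 bp the difference was -0.0076 ± 0.019 and changed sign between arrays. Matched over the 4 classes by the number of dense regions, dense minus other was 0.0053 ± 0.012 (SD, n = 3; two-sided exact permutation p = 0.5).

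**Figure D1:**
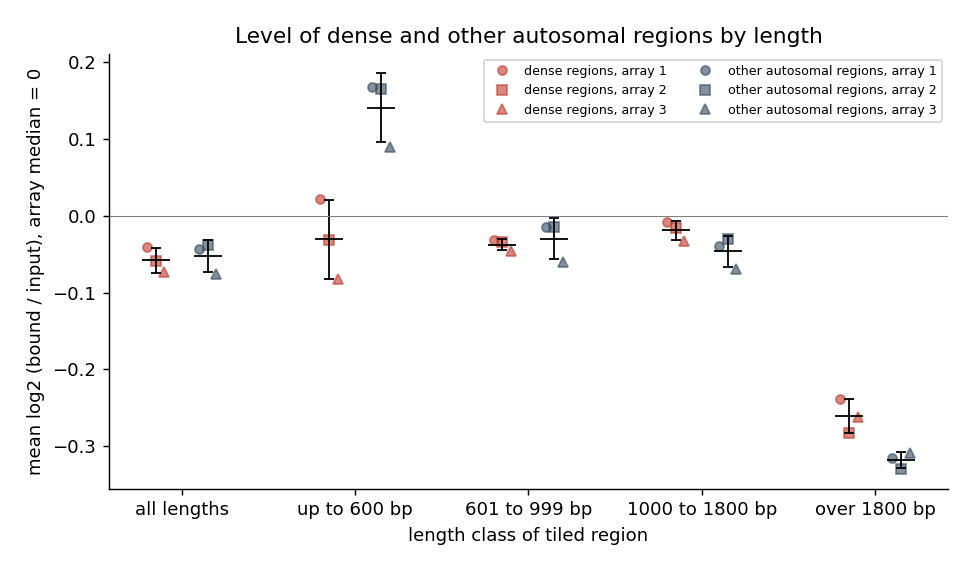
Mean log2 ratio of bound over input (vertical axis, array median at 0) of dense and other autosomal regions on each of 3 arrays, over all lengths and in 4 length classes; horizontal bars are means and error bars SDs over arrays. In regions up to 600 bp the dense points lie between -0.082 and 0.022 and the others between 0.089 and 0.17, while the points of both sets lie close together over all lengths.

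Regions beside the crowded stretches gave a nearer comparison. The 4810 other regions within 1 Mb of a dense one on the same chromosome averaged -0.036, -0.038 and -0.065. Dense regions were lower by a mean of -0.011 ± 0.0087 (SD, n = 3; two-sided exact permutation p = 0.25), and 7 of the alternative settings turned the sign.

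Level did not follow crowding in one direction over the whole range. Other regions with 0 to 4 midpoints around them averaged -0.088 ± 0.023. Those with 5 to 9 averaged -0.061 ± 0.021, with 10 to 14 -0.042 ± 0.020 and with 15 to 19 -0.041 ± 0.019. Those with 20 to 24 averaged 0.0014 ± 0.025, so below the limit the mean did not fall from class to class. Past the limit, the 1642 dense regions with 25 to 29 other midpoints averaged -0.068 ± 0.0051, the 956 with 30 to 34 averaged -0.096 ± 0.021 and the 314 with 35 to 39 averaged -0.023 ± 0.037. The 272 most crowded regions, with 40 or more, had means of 0.17, 0.093 and 0.043 on the 3 arrays, all above those of the other dense classes on the same array. Of these 272, 35.3% were called higher and 30.9% lower. Just outside the limit, the 406 regions with 24 other midpoints averaged -0.042 ± 0.019, and just inside it, the 370 with 25 averaged -0.061 ± 0.017.

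The most crowded regions came from 9 stretches, and 5 of these held most of them. The 69 on chromosome 17 (in chr17:33839991-36291976, where up to 67 other midpoints surrounded a region) averaged 0.29 ± 0.11, and the 40 at chr7:51683236-53128710 averaged 0.27 ± 0.09. The 59 at chr10:79076569-81091658 averaged -0.038 ± 0.074, the 57 at chr11:99236002-100502229 averaged 0.033 ± 0.067 and the 36 at chr11:68872123-70274649 averaged -0.089 ± 0.061. The raised mean of the class thus lay in 2 of its 5 main stretches. Input was above background in 82.4% of measurements of the class, more than in any other class of crowding.

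**Figure D2:**
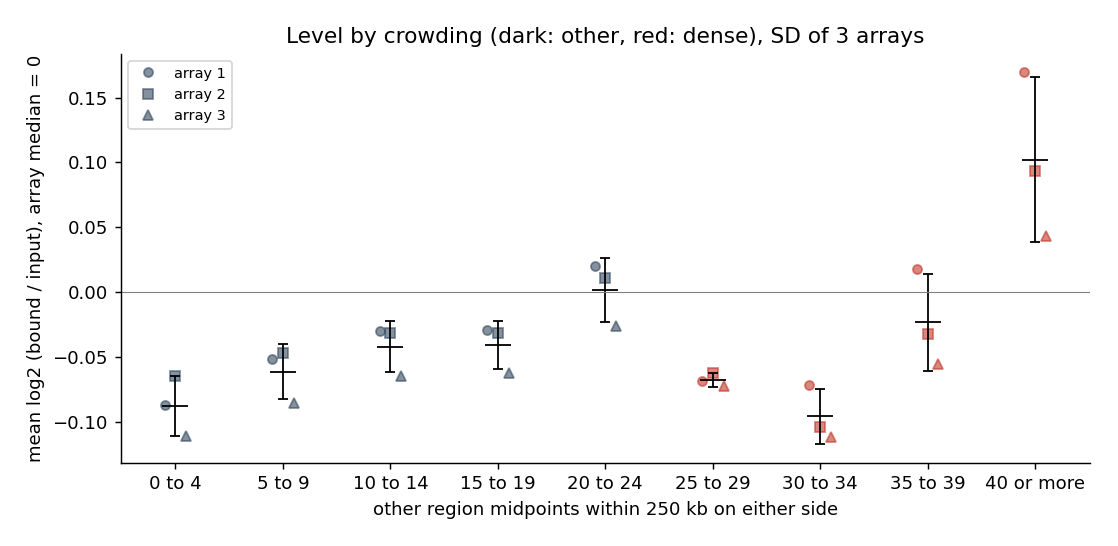
Mean log2 ratio of bound over input (vertical axis, array median at 0) by the number of other region midpoints within 250 kb on either side, for 3 arrays; horizontal bars are means, error bars SDs over arrays, dark points other autosomal regions and red points dense regions. Means lie at -0.068 for 25 to 29 midpoints, -0.096 for 30 to 34, -0.023 for 35 to 39 and 0.10 for 40 or more.

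The tiled regions were also compared from centre to edge, since methylation around a CpG-rich promoter is typically lowest at its middle. Probes up to 200 bp away from the midpoint made up the centre and probes over 500 bp away the edges, in standard regions with at least 8 probes. The 1876 dense regions with a value had centre minus edges of -0.34, -0.20 and -0.22 on the 3 arrays, a mean of -0.25 ± 0.08. The centre was lower than the edges on every array. In the 15723 other regions the contrast was -0.39, -0.27 and -0.25, a mean of -0.30 ± 0.08. The dip was shallower in dense regions by 0.047 ± 0.020 (SD, n = 3), in the same direction on all arrays (two-sided exact permutation p = 0.25).

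By single regions, the centre was called lower in 610 dense regions (32.5%), where 33.4% of all standard regions tested were, and higher in 287 (15.3%), where 14.7% were. Both shares lay near the background. A centre at least 2-fold lower was called in 397 dense regions (21.2%), where 22.8% of other autosomal regions tested were. A centre at least 2-fold higher was called in 168 (8.96%), where 7.61% of the others were. In 979 dense regions the contrast was not called.

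In the processed signals the gap between dense and other regions lay at the centre. The centre level was -0.15 ± 0.03 in dense and -0.20 ± 0.04 in other regions, a difference of 0.055 ± 0.0071, while edge levels were 0.11 ± 0.05 and 0.098 ± 0.048, a difference of 0.0086 ± 0.024. With every stretch weighted equally the difference at the centre was -0.029. It was 0.0018 ± 0.011 after loess, 0.0024 ± 0.021 where both signals of a probe were above background, 0.023 with normexp and 0.024 without 8 stretches of dim input. In the deposited log2 values it was 0.094, and over probes with input above background 0.085. In steps of 100 bp, dense minus other was 0.071 ± 0.014 within 100 bp of the midpoint, 0.085 ± 0.0062 at 100 to 200 bp and 0.038 ± 0.0083 at 200 to 300 bp. Farther out it lay between -0.0045 and 0.023. The profile of dense regions rose from -0.15 ± 0.03 next to the midpoint to 0.13 ± 0.05 at 600 to 700 bp. Bound signal was above background in 55.8% of dense measurements next to the midpoint and in 65.3% at 600 to 700 bp.

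**Figure D3:**
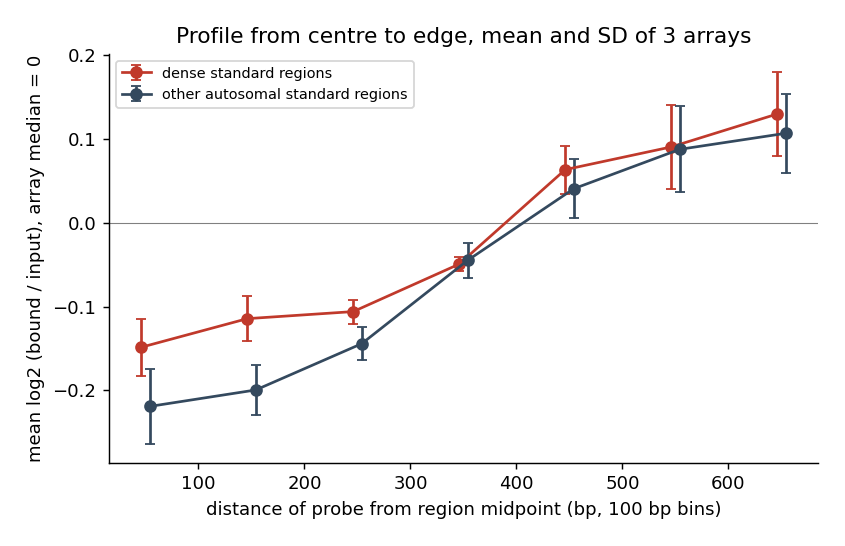
Mean log2 ratio of bound over input (vertical axis, array median at 0) by distance of the probe from the region midpoint in 100 bp bins. All dense and other autosomal standard regions with at least 8 probes are included, also those without a value for centre minus edges. Points are means and error bars SDs over 3 arrays. Dense regions start at -0.15 and others at -0.22 next to the midpoint, and the curves meet from 300 bp outward.

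A small set of dim stretches moved with this contrast. In 8 of the 110 stretches, holding 329 dense regions, input was above background in under 50% of measurements (35.4% over all 8). Their centre minus edges was 0.031, 0.22 and 0.20 on the 3 arrays (0.15 ± 0.10, 235 regions), and 24 of these regions were called with a lower centre (10.2%) and 47 with a higher one. In the remaining stretches centre minus edges was -0.31 ± 0.07 (1641 regions). The dip was also missing in other autosomal regions with input above background in under 50% of their measurements. There centre minus edges was 0.017 ± 0.077 (1983 regions), with 16.4% called lower and 17.8% higher. In the brighter other autosomal regions it was -0.35 ± 0.08. Without the dim stretches, and with all other autosomal regions kept, dense minus other became -0.011. When dim probes were left out of both sets instead, it was 0.057, and in the deposited log2 values it was -0.0078. Centre minus edges within the dense regions kept its sign under every alternative run, between -0.12 and -0.35. In the 447 dense regions over 1800 bp with a value, centre minus edges was 0.11, 0.00070 and 0.039 on the arrays, and in the 2423 others it was 0.22, 0.043 and 0.060, so no dip was measured at the midpoint of long regions.

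The dim stretches also stood apart in level, and array by array. Their regions averaged -0.17 on array 1 but 0.095 on array 2 and 0.029 on array 3, while those of the remaining stretches averaged -0.026, -0.076 and -0.085. Array 1 thus gave the lowest of the 3 values in dim stretches and the highest in the rest. Of the 6 dim stretches with at least 5 regions, array 1 was the lowest in 6, and of the 86 brighter ones it was the highest in 51. The other autosomal regions with dim input showed the same order, with -0.18, 0.10 and 0.045.

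Among dense regions that could be ranked, the most enriched lay more than 5-fold above the median probe. Among dense regions with at least 8 probes, 358 of 2743 had, in each channel, every probe well above background on 1 array or more. Named regions were taken from these, because values at the background floor cannot be put in order. The highest of these was chr7:26168674-26169975 (15 probes), with 2.59, 2.66 and 2.45 on the 3 arrays and a mean of 2.57 ± 0.11, a ratio of 5.93 to the median probe (limma adjusted p = 3.48e-08). Its centre was higher than its edges by 1.43 ± 0.29. The region at chr11:87569169-87570535 had 2.65, 2.69 and 2.34, with a mean of 2.56 ± 0.19 (limma adjusted p = 4.26e-08). Its centre was also higher, by 1.39 ± 0.11.

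A further 4 regions lay close below. The region at chr7:134234125-134235079 had 2.36, 2.59 and 2.57 on the arrays, that at chr7:4980171-4981816 had 2.49, 2.54 and 2.45, and that at chr7:31887340-31888693 had 2.66, 2.43 and 2.26. The region at chr14:31989653-31990979 had 2.57, 2.38 and 2.40. All 6 were called higher by limma with an adjusted p of 5.38e-08 or less, and no single array carried any of them. Of the 6, 4 lay on chromosome 7, which held 737 of the 3184 dense regions. Regions of chromosome 7 were also among the 6 lowest, given below. At chr7:4980171-4981816, chr7:31887340-31888693 and chr14:31989653-31990979, centre minus edges was 0.41 ± 0.11, -0.17 ± 0.24 and -0.13 ± 0.20, and none of these contrasts was called. A raised centre was thus called in 2 of the 5 regions with a contrast.

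The lowest rankable dense regions were shallower than the highest ones, but the filter favours this. It asks for bound signal above background at every probe, and it left 264 regions called higher and 37 called lower. Over all dense regions the extremes were -2.67 and 2.69. The lowest was chr7:28257956-28258935 (13 probes), with -1.28, -1.36 and -1.21 on the arrays and a mean of -1.29 ± 0.07 (limma adjusted p = 2.24e-06). Bound signal was above background in 28 of its 39 measurements. When only probes with bound and input signal above background on all arrays were kept, its level was -0.20 and was no longer called (limma adjusted p = 0.149). The region at chr7:111436401-111437056 had -1.10, -1.29 and -1.15, with bound signal above background in 24 of 33 measurements.

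In 1 of these low regions every measurement was bright. The region at chr4:88402632-88403924 had -0.76, -1.18 and -1.09 on the arrays (mean -1.01 ± 0.22; limma adjusted p = 2.49e-05), with bound signal above background in 33 of 33 measurements. It lay in a stretch of chromosome 4 whose mean was among the 5 highest. The other 3 of the 6 lowest were chr11:102109227-102110348 at -1.08 ± 0.22, chr7:111448137-111448958 at -0.91 ± 0.13 and chr2:26207488-26208808 at -0.90 ± 0.31. All 6 were below 0 on every array. Regions that lay lower still did not enter this ranking, because some of their probes never rose above background in a channel or they held fewer than 8 probes. Of all dense regions, 38 had no bound measurement above background at all, and 11 of those were called lower. Among all 3184 dense regions 1269 were called lower (39.9%).

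Single regions with a low centre showed a steep dip between enriched edges. At chr7:25218228-25219540 the centre was at -0.40, -1.17 and -0.88 on the arrays and the edges at 1.82, 1.26 and 1.22, so centre minus edges was -2.25 ± 0.16 (limma adjusted p = 4.19e-05). At chr10:77291028-77292399 the centre lay near the array median (-0.0023, 0.20 and -0.23) and the edges at 2.26, 2.15 and 2.04. The contrast there was -2.16 ± 0.18 (limma adjusted p = 4.98e-05). At chr11:99982686-99983976 it was -2.20 ± 0.28, and at chr5:138081402-138082878 it was -2.05 ± 0.30. Bound signal was above background in 19 of 27 measurements at chr7:25218228-25219540 and in 26 of 36 at chr11:99982686-99983976. At chr10:77291028-77292399 it was so in 45 of 45, and at chr5:138081402-138082878 in 51 of 54. How far values near background set the low centres was not tested.

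The arrays differed most at chr10:80966175-80967514, where centre minus edges was -2.99 on array 1 but -1.77 and -1.32 on arrays 2 and 3. Its level over all 8 probes was 0.063 ± 0.31 and was not called, so a mean over the region did not show the dip. In all 5 of these regions the centre lay below the edges on every array.

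The opposite shape was also found. At chr7:26154526-26155931 the centre was at 3.63, 3.62 and 3.46 and the edges at 1.12, 1.03 and 0.92, a contrast of 2.55 ± 0.04 (limma adjusted p = 2.58e-05). This region lay in the same stretch of chromosome 7 as chr7:26168674-26169975, the highest of the rankable regions. At chr7:52435513-52436669 the centre was at 2.46, 2.37 and 2.46 and the edges at 0.25, -0.20 and -0.45, a contrast of 2.57 ± 0.34 (limma adjusted p = 2.9e-05). The contrast was 2.02 ± 0.33 at chr7:51683236-51684600 and 1.92 ± 0.41 at chr3:88351977-88353118. At chr7:50818978-50820283 it was 1.91 ± 0.64, and after loess it was 0.26 and not called (limma adjusted p = 0.423). Of these 5 regions, 4 lay on chromosome 7, which held 737 of the 3184 dense regions.

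Dense regions fell into 110 stretches, runs of dense regions whose midpoints followed each other at 250 kb or less. They lay on 17 of the autosomes, with none on chromosomes 12 and 16, and covered 50.1 Mb in all. A single region made up 7 stretches, 11 held 2 to 4 and 92 held at least 5, with 3148 regions among them. The median stretch had 25.5 regions over 381 kb.

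The largest stretch was chr17:33839991-36291976, with 159 dense regions. Its mean was 0.16, 0.039 and 0.0063 on the 3 arrays (0.068 ± 0.080), with 54 regions called higher and 53 lower. The next, chr10:79076569-81091658, held 156 regions and had a mean of -0.077 ± 0.066, with 38 called higher and 62 lower. The third, chr17:23722980-26256588, held 150 regions with means of -0.18, -0.26 and -0.23, of which 30 were called higher and 76 lower. The first stretch lay above the array median on every array. The second (-0.0035, -0.13 and -0.097) and the third lay below it on every array. The means of the first 2 were within 2 SD of the array median.

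The stretches that followed in size differed in sign. On chromosome 7, the 94 regions of chr7:51683236-53128710 averaged 0.16 ± 0.07 and the 76 of chr7:30722807-31888693 averaged 0.25 ± 0.05, both above 0 on every array, while the 121 of chr7:109763307-111657172 averaged -0.030 ± 0.089, with input above background in 48.3% of measurements. On chromosome 11, the 85 regions of chr11:99236002-100502229 averaged 0.13 ± 0.05 and the 79 of chr11:68872123-70274649 averaged -0.14 ± 0.03. The 72 regions of chr3:87882058-89234936 averaged -0.20 ± 0.04. A stretch of as many regions, chr2:85418183-86626337, averaged 0.038 ± 0.12, with input above background in only 28.2% of measurements and just 13 regions called higher and 8 lower.

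Among stretches of at least 5 regions the means ran from -0.75 to 0.51. The SD of these means was 0.27, which includes the spread of single regions within each stretch. Their median SD over arrays was 0.060, which does not measure that spread. On all 3 arrays 39 stretches lay below and 37 above the mean of the other autosomal regions, and 16 did neither. The lowest was chr13:23625072-23874594, where 20 regions had means of -0.97, -0.64 and -0.64 and 16 were called lower. Input was above background in 63.6% of its measurements and bound signal in 28.5%. In the next 4 the bound signal was brighter, between 58.1% and 59.5% in 3 of them and 47.6% at chr11:105897115-106138276.

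That stretch, chr11:105897115-106138276, averaged -0.70 ± 0.10 over 16 regions, of which 11 were called lower and 1 higher. The 29 regions of chr8:87297086-87644656 averaged -0.57 ± 0.03, with 20 called lower. The 10 regions of chr11:102046381-102182226 averaged -0.56 ± 0.09, and the 12 of chr2:29904236-30143086 averaged -0.56 ± 0.09 with 9 called lower. In 13 of the stretches with at least 5 regions the mean lay under -0.3 on all arrays.

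At the other end, the 9 regions of chr11:87475531-87640744 had means of 0.60, 0.55 and 0.39 and the 7 of chr2:152337225-152452824 of 0.57, 0.54 and 0.37, with 5 called higher in each. The first of these held chr11:87569169-87570535, the second highest of the rankable regions, and its regions ran from -1.40 to 2.56. The next were chr8:74009934-74135085 at 0.36 ± 0.05, chr4:88238119-88495986 at 0.32 ± 0.06 and chr7:50696101-51392345 at 0.32 ± 0.10. Of the stretches with at least 5 regions, 3 had a mean over 0.3 on all arrays, and none of those had more than 10 regions.

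**Figure D4:**
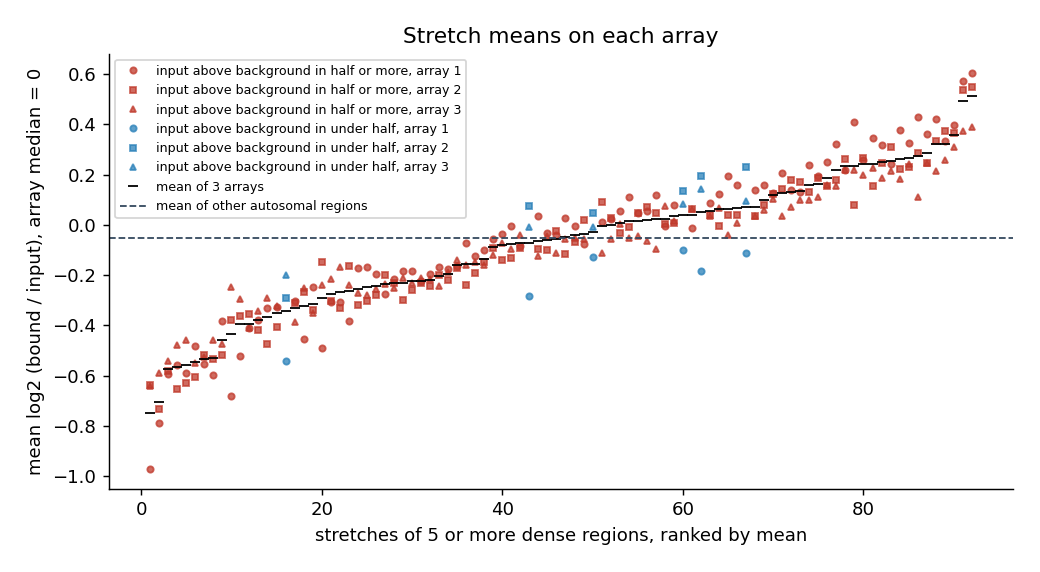
Mean log2 ratio of bound over input (vertical axis, array median at 0) of the 92 stretches with at least 5 dense regions on each of 3 arrays, ranked by mean; black bars are means of the arrays, the dashed line is the mean of other autosomal regions, and blue marks the 6 stretches with input above background in under 50% of measurements. Means run from -0.75 to 0.51, and in the 6 blue stretches array 1 gives the lowest value.

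Most of the spread lay inside the stretches. Stretch membership took 4.79% to 5.48% of the variance between dense regions on the 3 arrays. Net of the spread of regions within stretches, the SD between stretches was 0.15 to 0.20. The SD within them was 0.68 to 0.84. Dense regions less than 5 kb apart differed by a median of 0.65 ± 0.06 and correlated with r of 0.18 to 0.21 over 662 neighbouring pairs. Other autosomal neighbours at that distance differed by 0.63 ± 0.07 with r of 0.24 to 0.28 over 2615 pairs. At 10 to 20 kb r was 0.11 to 0.14 in dense and 0.18 to 0.22 in other pairs, and at 20 to 50 kb 0.16 to 0.18 and 0.12 to 0.16. These correlations are across regions of the same arrays, which are not independent, and they describe weak likeness between neighbours.

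Calls of one direction in a row were mostly short. Higher calls formed 574 runs of dense regions, of which 387 were single regions and 16 had at least 5. Lower calls formed 683 runs, of which 389 were single and 37 had at least 5. More dense regions were called lower (39.9%) than higher (28.3%), and runs were not counted among other autosomal regions. The longest higher run was 9 regions over 81.3 kb at chr11:115692188-115773518, with levels from 0.52 to 2.02 and a mean of 0.99 ± 0.15. The longest lower runs were 10 regions each, at chr5:138525609-138629728 with a mean of -0.82 ± 0.14 and at chr13:23625072-23776983 with a mean of -1.11 ± 0.30.

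**Figure D5:**
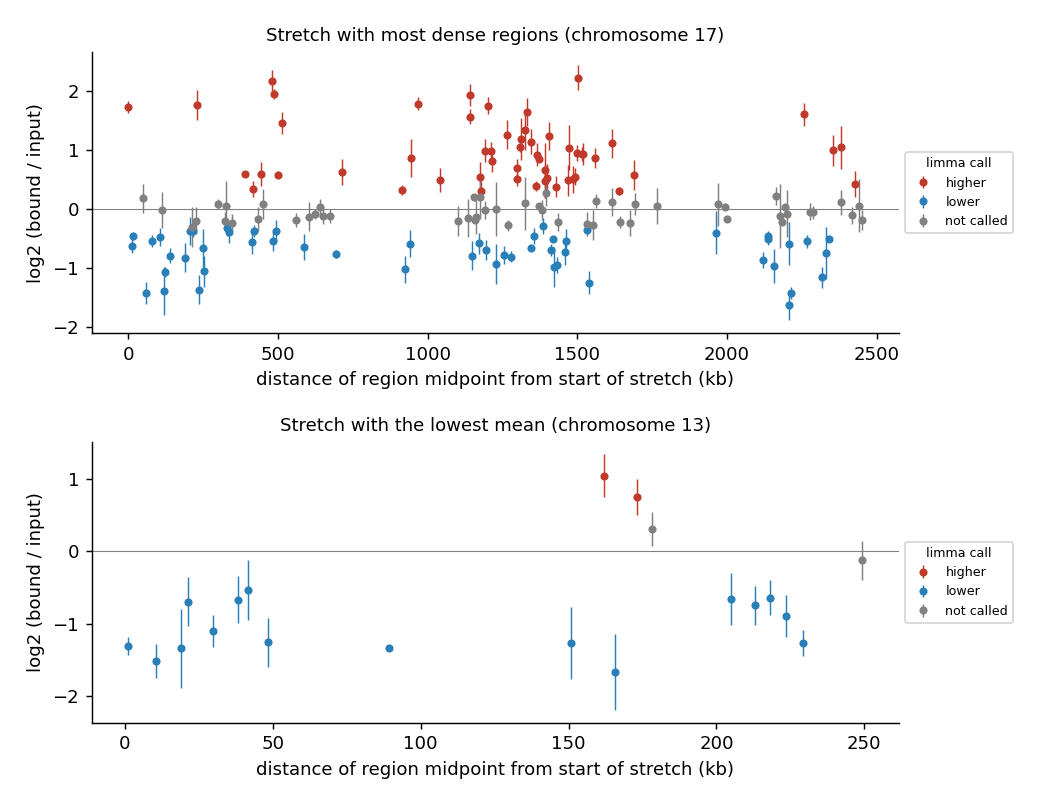
Log2 ratio of bound over input (vertical axes, array median at 0) of each dense region along the stretch with most dense regions (159, chromosome 17) and the stretch with the lowest mean (20, chromosome 13), by distance from the start of the stretch in kb; points are means and error bars SDs over 3 arrays, coloured by limma call. The upper stretch mixes 54 higher and 53 lower regions along its length, and in the lower one 16 of 20 are called lower.

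Chromosomes with dense regions differed in direction. On chromosome 7, which held 737 dense regions in 20 stretches (29.1% of its regions), dense regions averaged 0.086, 0.086 and 0.047 on the arrays and the other regions -0.11, -0.055 and -0.080, a difference of 0.16 ± 0.04. Dense regions also lay above the others on all arrays on chromosome 4 (0.12 ± 0.04) and chromosome 5 (0.082 ± 0.0010). They lay below on all arrays on 8 chromosomes, among them chromosome 9 at -0.23 ± 0.05, chromosome 3 at -0.17 ± 0.02 and chromosome 13 at -0.32 ± 0.13, where 49 regions in 2 stretches made up the value. On 6 chromosomes the arrays differed in sign, chromosome 11 with 404 dense regions among them (-0.014 ± 0.017). Chromosome 1 had 31 dense regions, 1.90% of its regions, in 1 stretch.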

How the data were processed

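Input (Cy3) and antibody-bound (Cy5) DNA of 3 pooled samples were read on 3 Agilent two-colour arrays. The labels do not settle whether the samples came from separate pools. Per the file headers, the deposited intensities are Agilent Feature Extraction 10.7.3.1 processed signals, background-subtracted and dye-normalised, with surrogate values near background, and the deposited flags (other values, 0 or 1) mark outlier spots and signals well above background. The authors' deposited series matrix holds log2 ratios of the same spots, with column medians of -0.97, -0.97 and -0.97. They tracked log2 of bound over input spot medians, each less its background median (r of 0.999 or more, spots with both differences positive). The main values rest on processed signals instead. The normalisation of the deposited ratios was not given in the sources used here.

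Control spots (4474 per array) and outlier spots (10, 17 and 12) were left out, log2 of bound over input processed signal was centred on the array median (-0.19, -0.19 and -0.086 before centring), spots of one probe were averaged, and 409597 placed probes were joined into regions. No loess or quantile step was used in the main values, since many probes of such an array can shift one way.

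Region means and centre contrasts were fitted against 0 over all regions with limma 3.58.1 in R 4.3.3 (lmFit and eBayes), Benjamini-Hochberg threshold 0.05. Each class difference was computed on every array, and its 3 values were tested by an exact permutation of their signs (two-sided). The code was tested on simulated data. Normexp (offset 50) used spot and background medians. Each array has its own slide, so no slide block was fitted.

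Named regions were the 6 highest and 6 lowest levels and the 5 lowest and 5 highest centre contrasts among rankable regions past the threshold with one sign on all arrays. Named stretches were the 10 with most regions and, among those with at least 5, the 5 highest and 5 lowest means. Other regions and stretches in the text were picked after their values were seen. The members, classes and lists were chosen with earlier results of these data known. The only annotation table at hand is of another build, so genes and sequences at these positions were not analysed here.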

Additional observations from a re-analysis of the deposited data

How the results depend on the processing

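No paired analysis was possible because there was 1 group. Over the alternatives run, the lower level of short dense regions and the lower centre of dense regions kept their sign. Dense minus other in mean level (-0.0051) was 0.076 in the deposited log2 values, 0.035 over probes with input above background, 0.029 with at least 20 midpoints, 0.0071 with at least 30, 0.014 with probes joined at 300 bp and 0.0069 at 1000 bp. It ran from -0.0091 to 0.0026 with 1 array left out and from -0.013 to 0.0032 with 1 stretch left out. Without array 2, or without the stretch chr17:23722980-26256588, it was above 0. The length-matched difference (0.0053) was -0.033 after loess, -0.027 over probes above background in both channels and -0.046 with stretches weighted equally. It ran from -0.0028 to 0.014 with 1 stretch left out, below 0 without chr7:30722807-31888693, and from 0.0017 to 0.012 with 1 array left out. Against regions within 1 Mb (-0.011) the difference was 0.027 in the deposited values, 0.012 over probes with input above background, 0.011 and 0.0030 with at least 20 and 30 midpoints, 0.0022 with the 100 kb window, and 0.012 and 0.011 with probes joined at 300 and 1000 bp. It ran from -0.015 to -0.0065 with 1 array left out. The difference in centre minus edges (0.047) was -0.0078 in the deposited values and, in an alternative added after seeing the data, -0.011 without dim stretches. It was 0.013 with stretches weighted equally and 0.037 to 0.057 with 1 array left out. For the centre level (0.055) it was -0.029 with stretches weighted equally, 0.0018 after loess and 0.0024 over probes above background in both channels. In the deposited values the centre level difference was 0.094, and over probes with input above background 0.085. For standard regions (0.028) it was -0.027 after loess, -0.025 over probes above background in both channels, -0.016 against regions matched by input signal and -0.033 with stretches weighted equally. In the deposited values the difference for standard regions was 0.088, and over probes with input above background 0.060. For regions over 1800 bp (0.057) it was -0.0051 after loess and -0.0096 with stretches weighted equally. In the deposited values the difference for these long regions was 0.16, and over probes with input above background 0.13. The median length difference (7 bp) was 2, 10 and 12 bp with at least 20 midpoints, at least 30, and probes joined at 1000 bp, and -73 bp at 300 bp. With the array mode as zero, 320 dense regions were called higher and 2404 lower. Over probes above background in both channels, 1231 were called higher and 626 lower, 322 with a lower centre and 183 with a higher one. With 1 array left out, 752 to 862 were called higher, 1068 to 1238 lower, 429 to 522 with a lower centre and 174 to 273 with a higher one, the 174 without array 2. In the 22 named regions 180 of 182 alternative values stayed past the threshold with their sign, and 6 could not be computed. Values over probes above background in both channels were missing for the level of chr11:102109227-102110348. They were also missing for the centre contrasts of chr7:25218228-25219540, chr11:99982686-99983976, chr7:52435513-52436669 and chr3:88351977-88353118. These regions were thus not checked in that setting. The exceptions are given with chr7:28257956-28258935 and chr7:50818978-50820283. The cause of these changes was not tested.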

Other observations

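Outside the dim stretches, the deepest centre dip of a stretch of at least 5 dense regions lay at chr4:154935306-155318418. There 14 of 27 dense regions had a centre contrast, and their mean was -1.09 ± 0.13, with 8 called lower at the centre and 0 called higher. The stretch itself averaged -0.46 ± 0.07. At chr11:98411306-98799203 the contrast was -0.92 ± 0.13 over 14 regions, with 8 called lower and 3 higher. Centre minus edges was below 0 in 76 of the 92 stretches of that size. It was highest at chr17:37118016-37582639, with 0.72 ± 0.25 over 10 regions, of which 6 were called higher and 1 lower. Input was above background in 68.2% of measurements there. These stretches were picked after their values were seen, and no test compares them with others.

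Dense regions of chromosome 17 lay in stretches that differed in level. The stretch chr17:33839991-36291976 averaged 0.068 ± 0.080 and chr17:23722980-26256588 averaged -0.22 ± 0.04. They held 159 and 150 of the 340 dense regions of that chromosome.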
